A study of Mus musculus with 8 samples.

Results

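Succinate dehydrogenase and succinyl-CoA ligase are neighbouring enzymes of the citrate cycle, and their transcripts were measured in the livers of mice lacking Mfn1 in the liver and of control mice. The genes were Sdha, Sdhb, Sdhc and Sdhd for the subunits of succinate dehydrogenase, and Suclg1, Suclg2 and Sucla2 for those of succinyl-CoA ligase. All probes whose platform annotation names one of these 7 genes were taken, which gave 12 of the 25697 probes on the array. They covered 6 genes, with 3 probes for Sdhb, 2 for Sdhc, 1 for Sdhd, 3 for Suclg1, 2 for Suclg2 and 1 for Sucla2. No probe is listed under Sdha, which was not analysed here. Of the 12 probes 9 lay above their array's median signal in at least 4 of the 8 arrays and were tested, and these 9 covered Sdhb, Sdhc, Sdhd, Suclg1 and Suclg2.

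The Mfn1 LKO group held 4 mice (637, 638, 651 and 701) and the control group 4 mice (641, 658, 661 and 663), with 1 Illumina bead array for each liver. The strain label of all mice is C57Bl6/Ntac. All were fed a high fat diet for 8 weeks and fasted for 6 hours before the liver was taken, and no label states their ages. The titles name AlbCre, Cre recombinase driven by the albumin promoter, which acts in hepatocytes. Mfn1 in other liver cells was not measured separately. Titles of control mice carry this name too, while the genotype of controls is given as Mfn1 Wildtype, so whether controls carried Cre is not known from the labels.

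Succinyl-CoA ligase of the mitochondrial matrix converts succinyl-CoA to succinate and stores the energy as GTP or ATP. Suclg1 encodes its alpha subunit, Suclg2 the beta subunit that makes the enzyme GTP-forming and Sucla2 the beta subunit that makes it ATP-forming. Succinate dehydrogenase oxidises the succinate to fumarate and is at the same time complex II of the respiratory chain. Sdha holds the flavin and the succinate site, Sdhb carries the electrons through iron-sulfur clusters, and Sdhc and Sdhd anchor both in the inner membrane and form the ubiquinone site. All of these subunits are encoded in the nucleus.

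The arrays had median signals between 96.4 and 103.9, with no background subtracted. The 2 Mfn1 probes that were tested fell in Mfn1 LKO livers, with log2 fold changes of -1.57 and -1.54 (limma adjusted p = 6.83e-07 and 2.28e-06), and another Mfn1 probe near the bottom of the signal range failed the filter. These were 2 of the 12755 probes tested, or 0.0157%, and no other probe passed an adjusted p of 0.05. Of 9 hepatocyte markers with a probe 8 were tested, and their summed signal lay between 63704 and 74225 in Mfn1 LKO livers and between 62086 and 70036 in control livers. The brightest markers weigh most in this sum. Quantile normalization gives each signal rank the same value on every array, which limits how far markers at the top can differ. The transthyretin probe (Ttr) had a mean log2 signal of 14.00 in Mfn1 LKO livers and 13.96 in control livers. The albumin probe (Alb) stood at only 6.33 in Mfn1 LKO livers and 6.28 in control livers, near the median of all probes of 6.02, and the Tat probe failed the filter. In whole liver RNA, fewer cells of a type and less RNA per cell cannot be told apart.

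Sdhd was the member with the greatest difference between the groups. The signal of its only probe, ILMN_1239143, was 289.6, 482, 399 and 349 in Mfn1 LKO mice 637, 638, 651 and 701, against 262, 237, 228 and 283 in control mice 641, 658, 661 and 663, before any normalization. Every Mfn1 LKO liver lay above every control liver, with mouse 637 nearest to the controls and mouse 638 farthest from them. After normalization the log2 signal was 8.15, 8.66, 8.30 and 8.46 in the Mfn1 LKO mice and 7.89, 7.84, 7.58 and 7.75 in the control mice, and the groups again did not overlap. The means were 8.39 ± 0.22 in Mfn1 LKO livers and 7.76 ± 0.14 in control livers (SD, n = 4 each). The log2 fold change was 0.63 (95% interval 0.39 to 0.87), a level 1.55-fold higher in Mfn1 LKO livers, with an unadjusted limma p of 0.000180. Adjusted over all 12755 probes the limma p was 0.154, so Sdhd did not pass the threshold. The probe ranked 12 of the 12755 by p and 15 by the size of its increase.

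**Figure D1:**
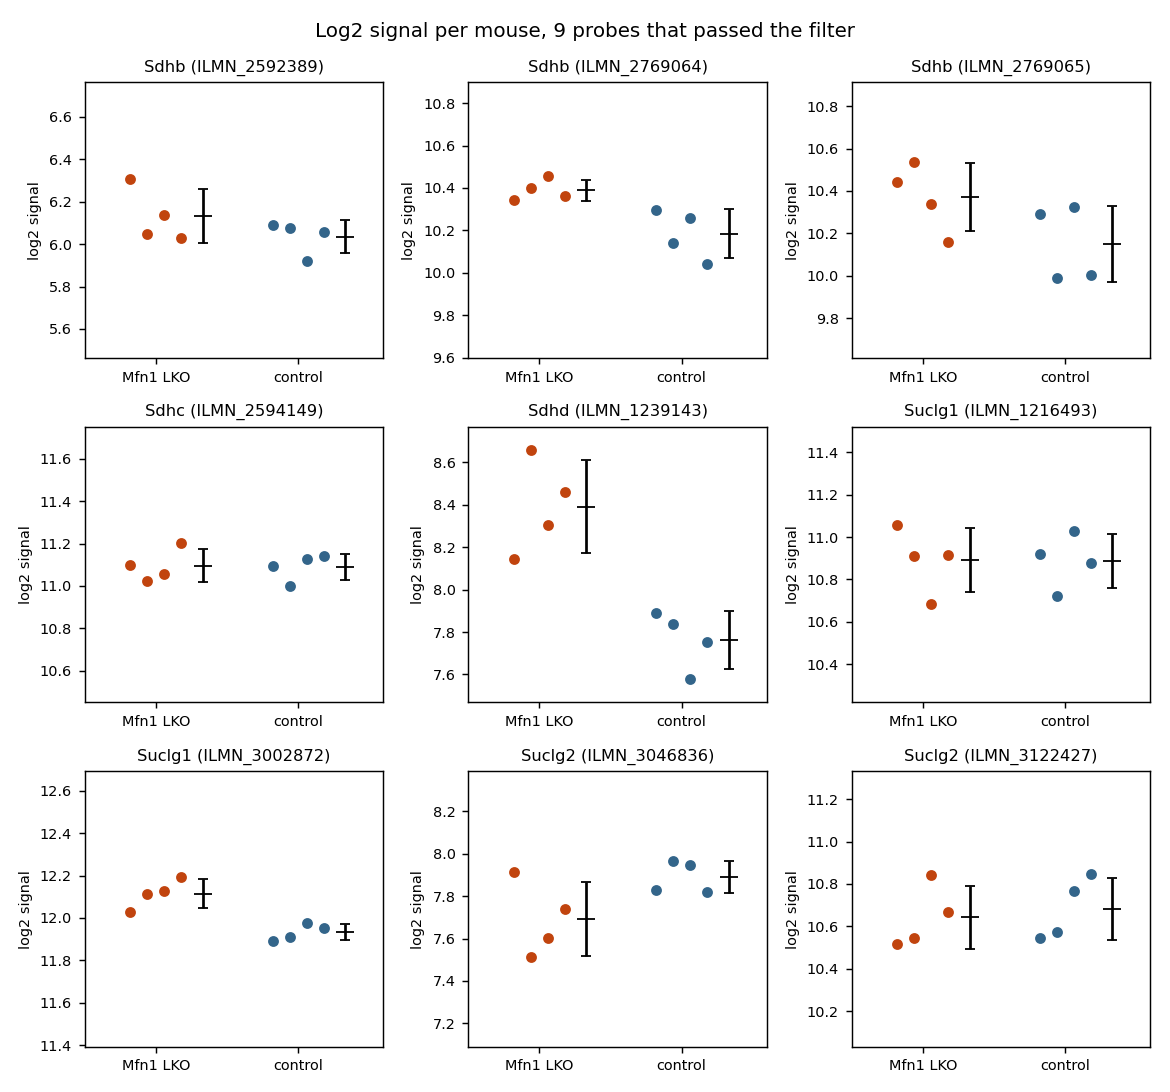
Log2 signal (vertical axes, each spanning the same number of log2 units) of the 9 tested probes in 4 Mfn1 LKO and 4 control livers, 1 point for each mouse, with the mean and SD as bars. The groups are apart for Sdhd, for the Sdhb probe ILMN_2769064 and for the Suclg1 probe ILMN_3002872.

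The promoter of Sdhd is shown beside that of Sdhb, as the 2 tested subunits of succinate dehydrogenase with a probe higher in every Mfn1 LKO liver, so that the letters before and after the start of transcription can be compared. Both are RefSeq sequences of GRCm38.p6, from 250 bases before to 50 bases after the annotated start, written 5′ to 3′ on the strand of the gene. Capitals mark matches on either strand to CCGGAAG, a motif of ETS factors such as GABP, to GCGCATGC, part of the NRF1 motif, and to TCAAGGTCA, the motif of estrogen-related receptors.
Sdhd, chr9:50603800-50604099, minus strand: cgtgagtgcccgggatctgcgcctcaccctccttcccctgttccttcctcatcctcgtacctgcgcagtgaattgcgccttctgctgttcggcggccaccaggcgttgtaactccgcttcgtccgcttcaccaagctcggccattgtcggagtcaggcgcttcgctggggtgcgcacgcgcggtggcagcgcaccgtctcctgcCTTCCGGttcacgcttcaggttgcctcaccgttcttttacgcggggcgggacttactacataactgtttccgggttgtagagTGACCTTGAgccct
Sdhb, chr4:140961021-140961320, plus strand: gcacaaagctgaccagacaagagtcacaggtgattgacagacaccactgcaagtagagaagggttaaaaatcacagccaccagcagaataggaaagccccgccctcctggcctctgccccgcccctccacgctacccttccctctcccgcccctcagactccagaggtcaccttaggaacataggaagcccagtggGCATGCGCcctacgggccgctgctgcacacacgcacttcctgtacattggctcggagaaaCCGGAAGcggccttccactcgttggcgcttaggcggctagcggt

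CCGGAAG occurred once in each of these promoters and in 9.12% of the 27025 RefSeq promoters of the same length. It was absent from the promoters of Sdha, Suclg1, Suclg2 and Sucla2. Of these genes Suclg1 also had a probe higher in every Mfn1 LKO liver. The stretch TCAAGGTCA occurred in the Sdhd promoter, on the strand opposite to the gene and starting 36 bases after the start, and in 0.407% of all promoters. GCGCATGC was present in the Sdhb promoter, on the opposite strand as GCATGCGC, and in 2.80% of all promoters. These are matches of letters and not tested sites. In all 12 motifs were searched on both strands. The others were the full NRF1 and YY1 motifs, the YY1 core GATGGCG (3.66% of all promoters), the CREB motif TGACGTCA (1.88%) and its part TGACGT (7.64%), the E-box CACGTG (7.24%), the GC box GGGCGG (35.9%), the CCAAT box (37.9%) and the TATAAA box (14.2%). Among these, the GC box occurred 3 times in the Sdhb and 1 time in the Sdhd promoter, and the CCAAT box 1 time in that of Sdhb. The rest of them were absent from both promoters shown. Shorter motifs lie within the longer ones, and 6 of the 7 genes had a promoter sequence to search, Sdhc not among them.

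The window shown for Sdhd also holds the start of a neighbouring gene. Timm8b, which encodes a small chaperone of the mitochondrial intermembrane space, starts 52 bases from Sdhd on the opposite strand in the RefSeq annotation. It was looked up for this position after the Sdhd values were seen. Its log2 signal was 10.57, 10.72, 10.90 and 10.69 in Mfn1 LKO mice 637, 638, 651 and 701, against 10.67, 10.73, 10.69 and 10.80 in control mice 641, 658, 661 and 663. The groups overlapped throughout, and the log2 fold change was -0.0065 (95% interval -0.17 to 0.15, limma adjusted p = 0.985).

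Sdhb was higher by less. Its probe ILMN_2769064 had log2 signals of 10.34, 10.40, 10.46 and 10.36 in Mfn1 LKO mice 637, 638, 651 and 701, against 10.29, 10.14, 10.26 and 10.04 in control mice 641, 658, 661 and 663. The 4 Mfn1 LKO livers lay close together and all above the controls, although the highest control, mouse 641, was near the lowest Mfn1 LKO liver. The log2 fold change was 0.21 (95% interval 0.061 to 0.35), 1.15-fold, with an unadjusted limma p of 0.00994 and an adjusted p of 0.301. A second probe of similar brightness, ILMN_2769065, had log2 signals of 10.44, 10.54, 10.34 and 10.16 in the Mfn1 LKO mice and 10.29, 9.99, 10.32 and 10.004 in the control mice. Here the groups overlapped, since Mfn1 LKO mouse 701 lay below controls 641 and 661, and the log2 fold change was 0.22 (95% interval -0.010 to 0.45, limma adjusted p = 0.490). The remaining Sdhb probe, ILMN_2592389, was dim, between the 36.2th and the 64.2th percentile of its array, and above the median in 4 Mfn1 LKO and 3 control arrays. It gave a log2 fold change of 0.095 (95% interval -0.065 to 0.25, limma adjusted p = 0.684). Before normalization the signals of the 2 bright Sdhb probes overlapped between the groups, with means of 1398 ± 214 in Mfn1 LKO and 1206 ± 149 in control livers for ILMN_2769064 (SD, n = 4 each).

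Sdhc, the partner of Sdhd in the membrane anchor, had nearly equal means. Log2 signals of its bright probe ILMN_2594149 were 11.10, 11.03, 11.06 and 11.20 in Mfn1 LKO mice 637, 638, 651 and 701, against 11.09, 11.0001, 11.12 and 11.14 in control mice 641, 658, 661 and 663. The groups were intermixed. The log2 fold change was 0.0060 with a 95% interval of -0.12 to 0.13 (limma adjusted p = 0.984). The other Sdhc probe, ILMN_1256125, was below the median of all 8 arrays and failed the filter, and in a fit of all 25697 probes it gave 0.017 (95% interval -0.085 to 0.12).

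**Figure D2:**
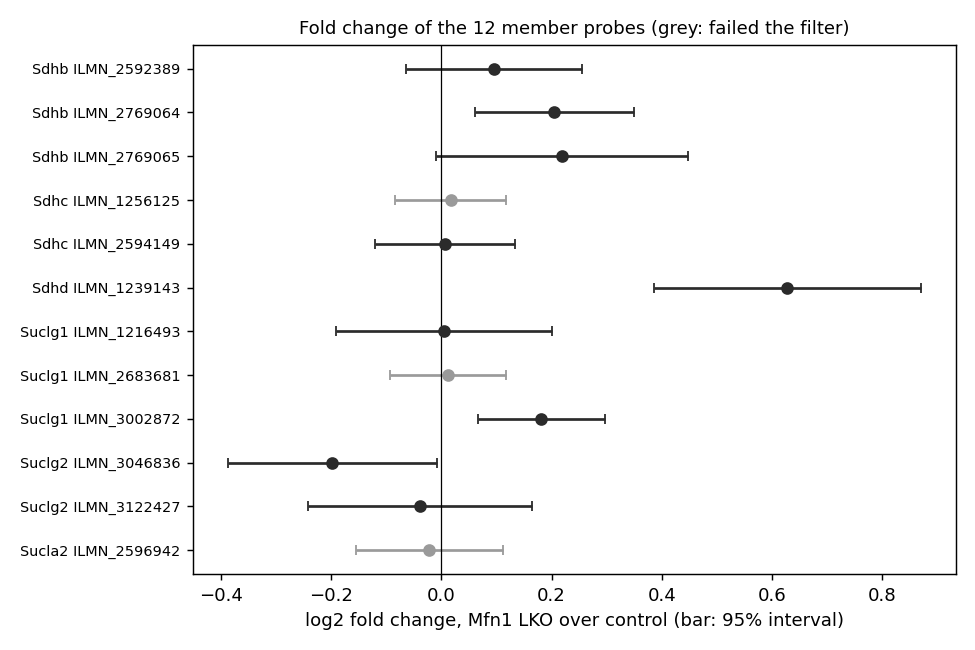
Log2 fold change of Mfn1 LKO over control livers (horizontal axis) for each of the 12 probes, with 95% intervals, where grey points are the 3 probes that failed the filter, from a fit of all probes. The Sdhd interval lies from 0.39 to 0.87. Those of Sdhb ILMN_2769064 and Suclg1 ILMN_3002872 also lie above 0, that of Suclg2 ILMN_3046836 lies below 0, and all others cross 0.

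Succinyl-CoA ligase showed small values that differed between probes of the same gene. For the alpha subunit Suclg1, the probe ILMN_3002872 had log2 signals of 12.03, 12.11, 12.13 and 12.19 in Mfn1 LKO mice 637, 638, 651 and 701, against 11.89, 11.91, 11.97 and 11.95 in control mice 641, 658, 661 and 663. All Mfn1 LKO livers lay above all controls, within a narrow range on both sides. The log2 fold change was 0.18 (95% interval 0.066 to 0.30), 1.13-fold, with an unadjusted limma p of 0.00571 and an adjusted p of 0.271. The other bright Suclg1 probe, ILMN_1216493, had log2 signals of 11.05, 10.91, 10.69 and 10.92 in the Mfn1 LKO mice and 10.92, 10.72, 11.03 and 10.88 in the control mice. Its groups were intermixed, and the log2 fold change was 0.0045 (95% interval -0.19 to 0.20, limma adjusted p = 0.993). The remaining Suclg1 probe, ILMN_2683681, lay between the 42.8th and the 56.1th percentile, failed the filter and gave 0.011 in the fit of all probes.

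The GTP-forming beta subunit Suclg2 was lower at its dimmer probe and near 0 at its brighter probe. Its dimmer probe, ILMN_3046836, had log2 signals of 7.91, 7.51, 7.60 and 7.74 in Mfn1 LKO mice 637, 638, 651 and 701, against 7.83, 7.97, 7.95 and 7.82 in control mice 641, 658, 661 and 663. Of the Mfn1 LKO livers 638, 651 and 701 lay below all controls, and 637 lay among them. The log2 fold change was -0.20 (95% interval -0.39 to -0.0089), with an unadjusted limma p of 0.0419 and an adjusted p of 0.442. The unadjusted p was 0.00368 without Mfn1 LKO mouse 637, and was above 0.05 without Mfn1 LKO mouse 638 (0.125), 651 (0.0974) or 701 (0.0541) or without control 658 (0.0996) or 661 (0.0952). The brighter Suclg2 probe, ILMN_3122427, had log2 signals of 10.52, 10.54, 10.84 and 10.67 in the Mfn1 LKO mice and 10.54, 10.57, 10.77 and 10.85 in the control mice. These overlapped fully, with a log2 fold change of -0.039 (95% interval -0.24 to 0.16, limma adjusted p = 0.920).

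Sucla2, the ATP-forming beta subunit, had a dim probe, between the 11.3th and the 52.8th percentile of its array. Its only probe, ILMN_2596942, had signals of 94.0, 99.0, 105.6 and 89.6 in Mfn1 LKO mice 637, 638, 651 and 701, against 96.8, 96.7, 99.2 and 95.4 in control mice 641, 658, 661 and 663. It was above the array median in 1 Mfn1 LKO and 1 control array and failed the filter. In the fit of all probes its log2 fold change was -0.022 (95% interval -0.16 to 0.11). A signal this close to background sets no limit on how far the transcript itself differed.

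Across the 9 tested probes none passed an adjusted p of 0.05 with limma, and 4 had an unadjusted p under 0.05, against 10.7% of all probes tested. Of these 3 were higher in Mfn1 LKO livers (Sdhd, Sdhb ILMN_2769064 and Suclg1 ILMN_3002872) and 1 was lower (Suclg2 ILMN_3046836), where 6.04% of all probes were higher and 4.66% lower at this p. The groups did not overlap for 3 of the 9 probes, against 6.15% of all probes. All 3 were higher in Mfn1 LKO livers and none lower, where 3.07% of all probes were apart and higher and 3.07% apart and lower. In direction 7 of the 9 were above 0, against 44.5% of all probes, and the median log2 fold change was 0.095, against -0.012 for all probes tested. The 9 probes covered only 5 genes, with 3 probes for Sdhb, and the median was the value of its dim probe ILMN_2592389. Among the 7 were Sdhc at 0.0060 and Suclg1 ILMN_1216493 at 0.0045, both close to 0. With arrays scaled to a common median in place of quantile normalization, the unadjusted limma p was 0.109 for the Sdhb and 0.166 for the Suclg1 probe, and with a common 75th percentile 0.0510 and 0.0942. Before normalization, Sdhd was the member whose groups did not overlap, and the Sdhb and Suclg1 probes did overlap.

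**Figure D3:**
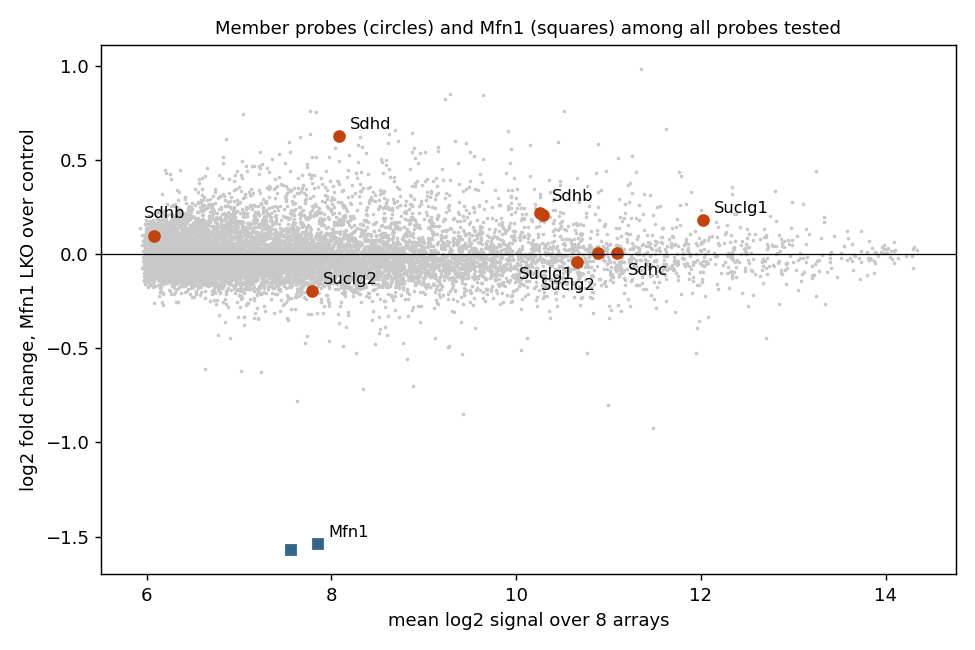
Log2 fold change of Mfn1 LKO over control livers (vertical axis) against the mean log2 signal over 8 arrays (horizontal axis) for the 12755 probes tested (grey), with the 9 member probes as circles and the 2 Mfn1 probes as squares. The Sdhd circle lies at 0.63 near the upper edge of the grey cloud, while the other members lie between -0.20 and 0.22.

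Whether the subunits of an enzyme changed unequally was tested within arrays, with the brightest tested probe of each gene. The log2 difference between Sdhd and Sdhb was greater by 0.42 in Mfn1 LKO livers, and that between Sdhd and Sdhc by 0.62. In both pairs every Mfn1 LKO liver lay above every control. The exact two-sided permutation p was 0.0286 for each, the minimum for groups of 4, and 0.0571 after adjustment over the 4 pairs, so that neither passed. Between Sdhb and Sdhc the difference was greater by 0.20 (exact permutation p = 0.0571, adjusted 0.0762), and between Suclg1 and Suclg2 by 0.22 (exact permutation p = 0.0857, adjusted 0.0857), both with overlapping groups. The Suclg1 probe used was ILMN_3002872 (log2 fold change 0.18), while the other bright Suclg1 probe, ILMN_1216493, gave 0.0045 and was not used. Without Mfn1 LKO mouse 651 or without mouse 701, both Sdhd differences had an adjusted exact permutation p of 0.0381. With a common median or a common 75th percentile, and without control 661 or without control 663, their adjusted exact permutation p was 0.114. The Sdhb and Sdhc difference also had an adjusted exact permutation p of 0.0381 without mouse 701. The Suclg1 and Suclg2 difference did so without mouse 651. The exact permutation p of both Sdhd pairs was already the minimum. Their adjusted p could therefore fall below 0.0571 only where another pair also reached that minimum, so this drop does not measure the Sdhd differences.

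**Figure D4:**
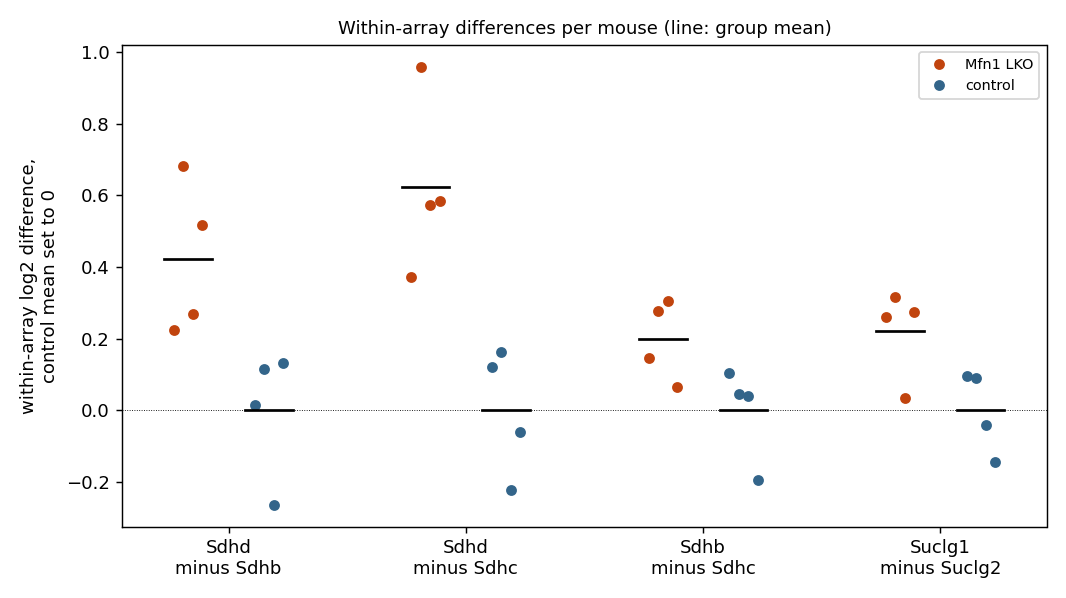
Log2 difference between 2 probes in the same array (vertical axis, mean of the controls set to 0) in 4 Mfn1 LKO and 4 control livers, 1 point for each mouse with the group mean as a line. In both pairs with Sdhd the groups are apart, and in Sdhb minus Sdhc and Suclg1 minus Suclg2 they overlap.

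Sdhd, as the member with the smallest p, was compared with the brightest tested probe of each of 8815 genes for likeness of pattern over the 8 arrays. The 5 most alike by Pearson's r were Polr2k, a small subunit shared by RNA polymerases (0.965), Clec4a3, a C-type lectin receptor of myeloid cells (0.960), Sfr1, a recombination factor (0.958), Mtg1, a GTPase of the mitochondrial ribosome (0.955), and Actl6a, an actin-related protein of chromatin remodelling complexes (0.955). With the group means removed r was 0.900 for Polr2k, 0.868 for Clec4a3, 0.769 for Sfr1, 0.814 for Mtg1 and 0.811 for Actl6a. These values describe 8 arrays searched over many genes. The closest of them, Polr2k, had log2 signals of 6.47, 6.67, 6.57 and 6.63 in Mfn1 LKO mice 637, 638, 651 and 701, against 6.44, 6.41, 6.19 and 6.30 in control mice 641, 658, 661 and 663. As with Sdhd, mouse 638 was highest and mouse 637 lowest among the Mfn1 LKO livers, and control 661 was the lowest of all.

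Of the factors that assemble succinate dehydrogenase 4 were tested, and 2 were higher and 2 lower, with none at an unadjusted limma p under 0.05, against 10.8% of all genes. Sdhaf2, which attaches the flavin to Sdha, gave a log2 fold change of 0.13 (95% interval -0.015 to 0.28). Sdhaf4, which acts on Sdha, gave 0.063 (95% interval -0.067 to 0.19). Sdhaf3 and Sdhaf1, which act in the maturation of Sdhb, gave -0.024 (95% interval -0.18 to 0.14) and -0.025 (95% interval -0.20 to 0.15).

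Of the other citrate cycle enzymes 10 were tested and 8 were higher, against 44.6% of all genes, with a median log2 fold change of 0.054 against -0.012 for all genes. None passed over all probes. An unadjusted limma p under 0.05 was seen for 3, all higher, where 10.8% of all genes had such a p in either direction. They were Mdh2, mitochondrial malate dehydrogenase (0.34, limma adjusted p = 0.154), Dld, a subunit shared by the 2-oxo acid dehydrogenases (0.45, adjusted p = 0.163), and Idh2, mitochondrial NADP-linked isocitrate dehydrogenase (0.40, adjusted p = 0.257). Dld had log2 signals of 7.33, 7.58, 7.49 and 7.43 in Mfn1 LKO mice 637, 638, 651 and 701, against 7.09, 7.19, 6.81 and 6.91 in control mice 641, 658, 661 and 663, with no overlap. The groups did not overlap for Mdh2 either, but they did for Idh2. Dld is also a subunit of the 2-oxoglutarate dehydrogenase complex, which makes succinyl-CoA. Of the other subunits of that complex, Ogdh gave -0.096 (95% interval -0.28 to 0.089) and Dlst gave 0.061 (95% interval -0.10 to 0.23). Downstream, fumarase (Fh1), which takes up the fumarate that succinate dehydrogenase makes, gave 0.047 (95% interval -0.15 to 0.24).

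Among genes that make, use or carry succinyl-CoA and succinate outside the cycle, 12 were tested, with a median of 0.020. Of these 8 were higher and 4 lower, where 44.6% of all genes were higher. In this list 1 gene had an unadjusted limma p under 0.05, against 10.8% of all genes. It was Slc25a10, the dicarboxylate carrier that moves succinate and malate across the inner membrane (0.26, 95% interval 0.091 to 0.43, limma adjusted p = 0.281). Its log2 signal was 9.96, 9.99, 9.87 and 9.96 in Mfn1 LKO mice 637, 638, 651 and 701, against 9.58, 9.51, 9.82 and 9.81 in control mice 641, 658, 661 and 663. All Mfn1 LKO livers were above all controls. Aldh5a1, which makes succinate from succinic semialdehyde, gave -0.12 (95% interval -0.24 to 0.00066), Pcca, the alpha subunit of propionyl-CoA carboxylase, -0.16 (95% interval -0.33 to 0.0014), and Pccb, its beta subunit, -0.084 (95% interval -0.23 to 0.059). Mmut and Mmaa of the route from propionyl-CoA failed the filter.

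Other enzymes that hand electrons to ubiquinone, as succinate dehydrogenase does, numbered 9 tested, with a median of -0.038. Of these 3 were higher and 6 lower, where 44.6% of all genes were higher. An unadjusted limma p under 0.05 was seen for 1 of the 9, against 10.8% of all genes. It was Sqor, which oxidises sulfide (0.47, 95% interval 0.13 to 0.82, limma adjusted p = 0.309), and its groups overlapped. Prodh2 gave -0.16 (95% interval -0.50 to 0.18), Prodh, proline dehydrogenase, 0.18 (95% interval -0.22 to 0.59), and Etfa, a subunit of the electron transfer flavoprotein, -0.058 (95% interval -0.19 to 0.076).

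**Figure D5:**
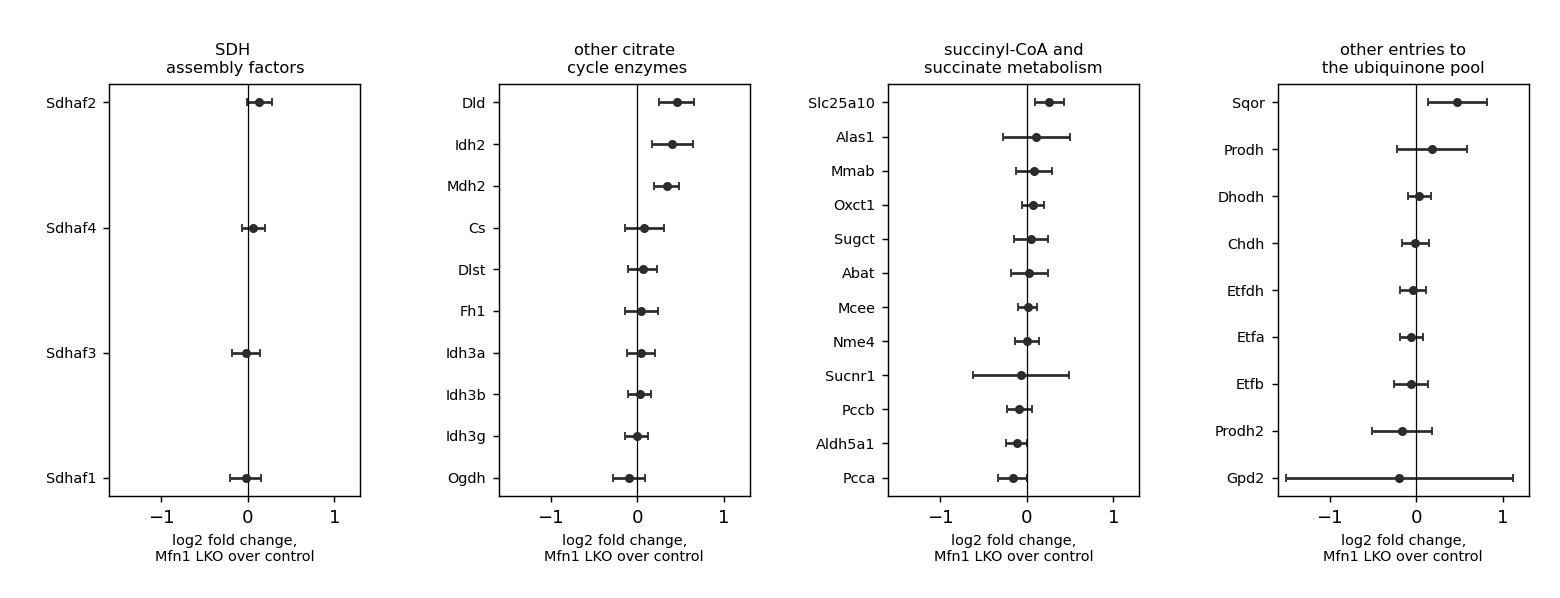
Log2 fold change of Mfn1 LKO over control livers with 95% intervals (horizontal axes) for the brightest tested probe of each gene, in 4 panels for assembly factors, other citrate cycle enzymes, succinyl-CoA and succinate metabolism, and other entries to the ubiquinone pool. Dld, Idh2, Mdh2, Slc25a10 and Sqor have intervals above 0, and most others lie around 0.

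Macrophage markers were also higher on average in Mfn1 LKO livers. All 12 markers tested were higher, against 44.6% of all genes, and 7 of them had an unadjusted limma p under 0.05, against 10.8% of all genes. Cd5l failed the filter. Their summed signal lay between 3565 and 5509 in Mfn1 LKO livers and between 3334 and 4074.5 in control livers. A marker score was formed by centring each marker's log2 signal over the 8 arrays and averaging the markers, and it was -0.17, 0.085, 0.37 and 0.44 in Mfn1 LKO mice 637, 638, 651 and 701, against -0.24, 0.068, -0.25 and -0.30 in control mice 641, 658, 661 and 663. Mouse 637 had the lowest score and the lowest Sdhd signal of the Mfn1 LKO livers. Its score lay within the range of the controls and its Sdhd signal above all of them. The other mice did not follow this order. Mouse 638 had the highest Sdhd log2 signal (8.66) with a score of 0.085, near that of control 658 (0.068). Mice 651 and 701 had higher scores than mouse 638 and lower Sdhd log2 signals (8.30 and 8.46). The part of macrophages in the Sdhd result and in the other results was not tested. All 6 neutrophil and all 4 red cell markers tested had log2 fold changes above 0. Of these, 0 neutrophil and 1 red cell marker had an unadjusted limma p under 0.05. Summed neutrophil signals lay between 455 and 1473 in Mfn1 LKO livers and between 455 and 909 in control livers. Those of red cells lay between 6095 and 16530 in Mfn1 LKO livers and between 8251 and 9564 in control livers. Mouse 701 had the highest marker score for both cell types (0.67 and 0.76), while mouse 637 had -0.33 for both. No skeletal muscle or heart marker passed the filter.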

How the data were processed

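The authors deposited linear intensities of 25697 probes on 8 arrays, without background subtraction, detection p-values or control probes, so that neqc could not be run. The log2 values they also deposited lay within 0.0066 of the quantile normalized log2 of these intensities. The scanner software is not given in the sources used here. For the values reported, intensities were corrected with normexp (offset 50), quantile normalized and put on the log2 scale, where the offset shrinks the fold changes of dim probes. Probes with a signal over the array median on 4 or more arrays (12755) entered limma 3.58.1 in R 4.3.3 (lmFit, eBayes). Its two-sided p-values were adjusted over all of these probes by the Benjamini-Hochberg method, with a threshold of 0.05. They weigh the group difference against the spread between mice, moderated over all probes, and with 8 arrays the precision is limited. Titles gave the groups, and the labels name no slide or date. Probe names are those of the platform annotation held by GEO. It gives 1 symbol for 23978 probes, several for 0 and none here for 1719. By gene ID, 23962 matched RefSeq (GRCm38.p6), and 0 symbols changed.

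The members and gene lists were chosen with earlier results of these data known. Named are Mfn1, all member probes, the 4 genes of smallest p in each pathway list and the 5 genes most like the member of smallest p. Dlst, Fh1, Timm8b, Ttr, Alb and Gpd2 were named after their values were seen. The fitting code was tested on simulated data. Of 9 planned subunit pairs, 4 had a tested probe for both genes. Alternatives covered background correction, scaling, filter, choice of probe, moderation, array weights, the deposited log2 values and leaving out each mouse. Plots were made in Python 3.11.15 with matplotlib 3.10.9.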

Additional observations from a re-analysis of the deposited data

How the results depend on the processing

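No member probe passed an adjusted p of 0.05 under any of the 19 alternatives run. The Sdhd log2 fold change lay between 0.54 and 0.72, above 0 in all 19, with a limma adjusted p between 0.0728 (without Mfn1 LKO mouse 637) and 0.621 (arrays scaled to a common median). It was 0.56 without background correction and with the deposited values, and 0.72 with offset 16. The bright Sdhb probes and Suclg1 ILMN_3002872 stayed above 0 and Suclg2 ILMN_3046836 below 0 in every alternative that held them. The number of member probes with an unadjusted limma p under 0.05 lay between 2 and 5 over the alternatives, in place of 4. It was 2 with a common median, 2 with a common 75th percentile, and 5 with no filter and without control 641. The share of all probes at this p was 5.24% with a common median and 7.42% with a common 75th percentile, in place of 10.7%. Over all probes, the number of tests past an adjusted p of 0.05 lay between 1 and 4, in place of 2. It was 1 with 1 probe for each gene, 3 with no filter, 3 with array weights and 4 with limma-trend and robust estimation. With 1 mouse left out it lay between 2 and 4 (4 without Mfn1 LKO mouse 701). Values near 0 changed sign, and the cause was not tested. Sdhc ILMN_2594149 gave -0.017 with a common 75th percentile, -0.0040 with array weights and between -0.029 and 0.028 with 1 mouse left out. Suclg1 ILMN_1216493 gave -0.021, -0.0090 and between -0.050 and 0.074 under the same settings. Suclg2 ILMN_3122427 lay between -0.11 and 0.016 with 1 mouse left out. No paired analysis was possible because the groups share no mouse numbers.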

Other observations

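Gpd2, the mitochondrial glycerol 3-phosphate dehydrogenase that also feeds ubiquinone, varied far more between mice of the same group than any member of the family. Its log2 signal was 6.82, 8.01, 8.50 and 9.14 in Mfn1 LKO mice 637, 638, 651 and 701, against 6.68, 8.34, 8.91 and 9.30 in control mice 641, 658, 661 and 663. Both groups held 1 low liver, mouse 637 among the Mfn1 LKO and mouse 641 among the controls, and the group SDs were 0.98 and 1.16. The log2 fold change was -0.19 with a 95% interval of -1.51 to 1.12 (limma adjusted p = 0.942). The gene was singled out after its values were seen.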
